A study of Homo sapiens with 70 samples.

Results

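The 7 enzymes described here turn lanosterol into cholesterol, and their transcripts were measured in 2 liver cancer cell lines under 3 drug treatments. They are CYP51A1, TM7SF2, NSDHL, HSD17B7, EBP, SC5DL (the older symbol of SC5D) and DHCR7, chosen by name from the textbook pathway, and they make up 7 of the 20090 gene symbols in the authors' 6 deposited edgeR tables. Each gene stands for the representative transcript that the authors marked, and all 7 were counted in all 70 libraries. Hep3B and Huh7 are established human hepatocellular carcinoma lines. Cells in 6-well plates were treated for 24 h with DMSO alone, with 5 µM GW3965, with 2 µM sorafenib, or with both drugs at these doses, and poly-A RNA was sequenced. GW3965 activates the liver X receptors (LXR), a pair of nuclear receptors, and sorafenib is an inhibitor of RAF and receptor tyrosine kinases. Hep3B had 9 libraries in each of its 4 groups. Huh7 had 8 libraries with DMSO, 8 labelled GW3965, 9 labelled sorafenib and 9 with both drugs. Each line is a single culture model without the other cells of a liver, and no label names separate cultures for the replicates, so the p-values speak of spread among the sequenced libraries, possibly technical spread alone.

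In the pathway, CYP51A1 is a cytochrome P450 that removes a methyl group from lanosterol, and TM7SF2 reduces the double bond that this leaves, a step that the nuclear envelope protein LBR can also carry out. NSDHL and HSD17B7 act in the removal of the next methyl groups, the first as a decarboxylating dehydrogenase and the second as a ketoreductase. EBP then moves a double bond within the sterol ring, SC5DL adds another, and DHCR7 removes one to yield cholesterol or its direct precursor. The transcription factor SREBP-2 (gene SREBF2) raises transcription of most genes of this pathway when membranes of the endoplasmic reticulum are low in sterol. LXR is switched on by oxidised sterols and by some intermediates of the pathway, and it is best known in liver cells for raising cholesterol efflux and fatty acid synthesis.

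The values are the authors' own: a log2 fold change of drug over DMSO and its false discovery rate (FDR), with a gene counted as called at an FDR under 0.05. Single-library values were not analysed here, so depth, replicate spread and overlap between groups are unknown. The 95% intervals and standard errors (SE) below are approximate and were read back from the authors' p-values. Levels in CPM (counts scaled to a common library total) are those implied by the mean level and the fold change of a table. The implied DMSO level of a line moved by up to 0.08 on the log2 scale between tables, in the median over expressed genes. How the tables were normalised is not known. Shares of all symbols below include genes with a mean under 2 CPM, while all 7 enzymes were above it in every table. In cell culture RNA, fewer cells of one state and less RNA per cell cannot be told apart.

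The drug labels were checked on known targets. In Hep3B the LXR target ABCG1 rose by 5.99 (log2) with GW3965 and the ERK target DUSP6 fell by 2.40 with sorafenib, in the authors' deposited tables. In Huh7 the single-drug groups went against their labels on most of these targets. The group labelled GW3965 had DUSP6 at -1.70, the LXR target SREBF1 at -0.07 and ABCG1 at 0.75 (FDR 7.54e-06), in the authors' deposited table. The group labelled sorafenib had ABCG1 at 3.82, SREBF1 at 1.63 and DUSP6 at -0.02, in the authors' deposited table. The called rise of ABCG1 in the group labelled GW3965 has the direction of its label, though it is smaller than that in the group labelled sorafenib. ABCG1 was also called higher with sorafenib alone in Hep3B, at 0.59 (FDR 0.0327, mean level 0.88 CPM), in the authors' deposited table. A small rise of ABCG1 thus does not tell the drugs apart. These Huh7 groups are therefore called by their labels throughout, and no direction below is assigned to a drug in Huh7 unless both drugs were present. All 8 of 8 hepatocyte markers reached a mean of 2 CPM in every table, with summed mean levels between 14146 and 20114 CPM, while 0 of 3 endothelial, 1 of 4 leukocyte and 2 or 3 of 4 fibroblast markers did. With both drugs, 7 of 8 hepatocyte markers were lower in Hep3B and 6 of 8 in Huh7, where 23.6% and 17.3% of all symbols were called lower. The part of these markers in the enzyme results was not tested.

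Promoters of 4 of the enzymes are shown because these transcripts part ways when both drugs are given: TM7SF2 and NSDHL fell in Hep3B, CYP51A1 and HSD17B7 rose. Each run holds the 250 bases before the transcript start from RefSeq (GRCh38.p14), written 5′ to 3′ on the gene's strand. Capitals mark CCAAT, the core bound by NF-Y, and GGGCGG, the GC box bound by Sp1, on either strand (ATTGG and CCGCCC on the other). The stretches lie at chr11:65111622-65111871 (plus strand, TM7SF2), chrX:152830813-152831062 (plus strand, NSDHL), chr7:92134478-92134727 (minus strand, CYP51A1) and chr1:162790452-162790701 (plus strand, HSD17B7).
TM7SF2: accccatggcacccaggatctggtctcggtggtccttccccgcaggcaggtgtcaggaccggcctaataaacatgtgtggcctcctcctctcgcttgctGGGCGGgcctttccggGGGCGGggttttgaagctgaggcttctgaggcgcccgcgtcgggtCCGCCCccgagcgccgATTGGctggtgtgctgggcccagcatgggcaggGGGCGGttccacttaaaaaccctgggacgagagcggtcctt
NSDHL: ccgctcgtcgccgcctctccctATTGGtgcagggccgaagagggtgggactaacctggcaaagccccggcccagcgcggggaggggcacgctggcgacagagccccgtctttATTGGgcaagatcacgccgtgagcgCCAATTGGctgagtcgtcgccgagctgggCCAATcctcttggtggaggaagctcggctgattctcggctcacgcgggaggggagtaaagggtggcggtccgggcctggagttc
CYP51A1: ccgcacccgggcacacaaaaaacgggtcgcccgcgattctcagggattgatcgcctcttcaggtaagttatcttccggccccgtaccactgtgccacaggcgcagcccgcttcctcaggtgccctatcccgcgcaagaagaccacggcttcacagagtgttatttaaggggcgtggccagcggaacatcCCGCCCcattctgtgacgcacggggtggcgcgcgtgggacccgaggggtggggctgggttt
HSD17B7: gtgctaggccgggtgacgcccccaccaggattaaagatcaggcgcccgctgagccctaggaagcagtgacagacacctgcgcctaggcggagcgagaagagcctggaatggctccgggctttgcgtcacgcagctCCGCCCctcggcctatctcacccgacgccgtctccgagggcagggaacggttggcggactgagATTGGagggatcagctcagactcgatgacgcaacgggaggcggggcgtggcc

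Full RefSeq windows of 300 bases also take in the first 50 transcribed bases. Over these, CCAAT stood in 7 of the 9 windows of these genes (6 of the 7 genes) and in 34.6% of all 35116 windows. GGGCGG likewise stood in 7 of the 9 windows (6 of the 7 genes), against 45% of all windows. The window of NSDHL had 5 CCAAT matches, among them a pair on opposite strands that overlap in 1 palindrome, and no GGGCGG. The CYP51A1 window had 1 GGGCGG and no CCAAT, TM7SF2 had 4 GGGCGG and 1 CCAAT, and HSD17B7 had 1 GGGCGG and 2 CCAAT, of which the second lies after the transcript start. A form of the sterol regulatory element, TCACNCCAC, was in 0 of the 9 windows of these genes and in 1.13% of all windows. The letters searched do not separate the enzymes that rose from those that fell, and a window without a match says only that those letters are not in it.

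The levels with DMSO set the scale for the changes that follow. Per kilobase of transcript, DHCR7 and TM7SF2 led in Hep3B with 69.8 and 71.4 CPM per kb, followed by EBP with 42.5, SC5DL with 32.0, CYP51A1 with 28.7, NSDHL with 20.2 and HSD17B7 with 9.70. DHCR7 and TM7SF2 are neighbours in this order, and no error is known for these levels, so which of them is higher is not settled. The order in Huh7 was another one, with DHCR7 at 156 CPM per kb, EBP at 121, CYP51A1 at 58.2, SC5DL at 41.7, TM7SF2 at 19.9, NSDHL at 15.1 and HSD17B7 at 7.29. TM7SF2 thus passed from the top of the list in Hep3B to the fifth place in Huh7. In CPM not divided by length, TM7SF2 was 3.58-fold higher in Hep3B (123 against 34.3 CPM), whereas EBP was 2.83-fold, DHCR7 2.24-fold and CYP51A1 2.03-fold higher in Huh7. No test of these differences between lines was possible, since no table compares the lines.

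**Figure D1:**
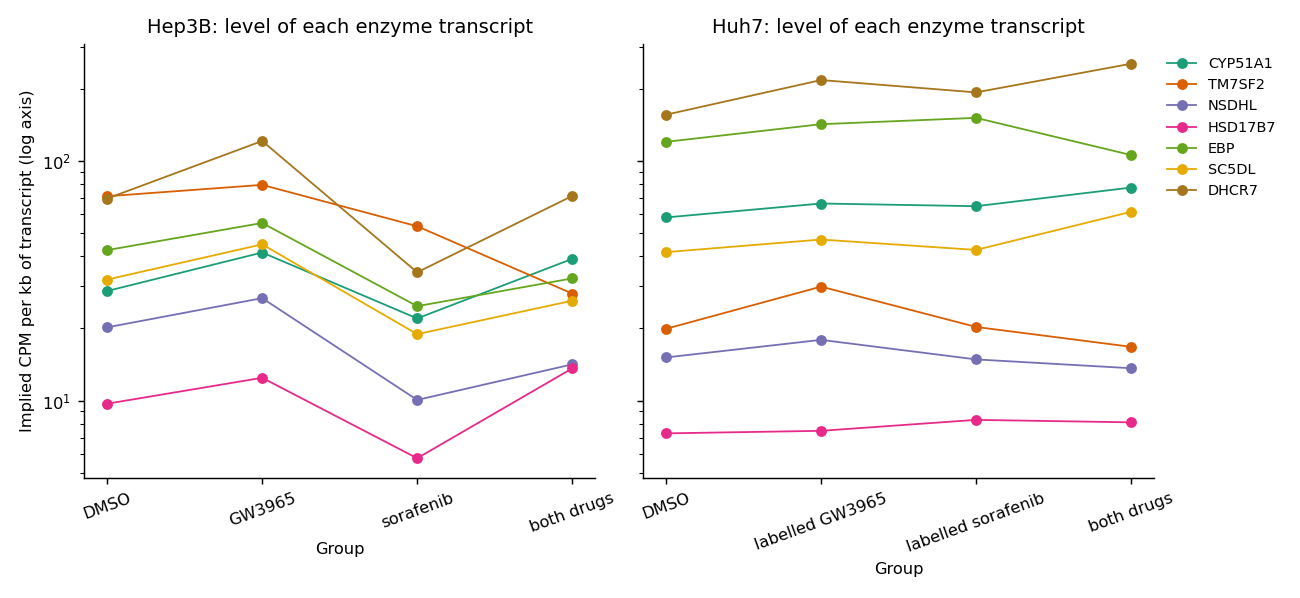
Level of each of the 7 enzyme transcripts in every group, as implied CPM per kb of transcript on a log axis, for Hep3B (left) and Huh7 (right); each point is 1 group level from the authors' tables with no error known, and lines only join points of 1 gene. TM7SF2 starts beside DHCR7 in Hep3B DMSO at 71.4 and 69.8 and ends below EBP with both drugs, while in Huh7 DHCR7 is the highest transcript in every group.

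With GW3965 alone, all 7 enzymes rose in Hep3B. The authors' edgeR FDR called 7 of 7 higher, where 6.79% of all symbols were called in either direction, 4.51% higher and 2.28% lower. The median log2 fold change of the 7 was 0.48, and that of all 20090 symbols was -0.02. DHCR7, which acts last, rose most, from 177 to 324 CPM or 1.83-fold, with a log2 fold change of 0.88 (approximate SE 0.055, FDR 8.29e-55) in the authors' deposited table. CYP51A1, which opens the sequence, rose from 87.3 to 133 CPM, a log2 fold change of 0.61 (SE 0.064, FDR 2.1e-19) in the authors' deposited table. The approximate 95% interval of DHCR7, 0.77 to 0.98, lies above that of CYP51A1, 0.49 to 0.74, and above those of the other 5. SC5DL rose from 68.6 to 101 CPM (log2 0.57, FDR 1.23e-14), NSDHL from 31.3 to 43.7 CPM (0.48, FDR 1.17e-13), EBP from 71.5 to 98.0 CPM (0.45, FDR 3.15e-07) and HSD17B7 from 10.9 to 14.8 CPM (0.44, FDR 2.93e-06), in the authors' deposited table. TM7SF2 rose least, from 117 to 137 CPM, with a log2 fold change of 0.23 (SE 0.049, FDR 7.76e-05) in the authors' deposited table. Its approximate 95% interval, 0.14 to 0.33, lies below those of CYP51A1, NSDHL, SC5DL and DHCR7.

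With sorafenib alone, all 7 fell in Hep3B. The edgeR FDR of the authors called 7 of 7 lower, while 34.7% of all symbols were called in either direction and 17.4% lower. Their median log2 fold change was -0.77, against 0.09 over all symbols and -0.03 over expressed ones. DHCR7 fell from 187 to 91.6 CPM, a log2 fold change of -1.03 (SE 0.118, FDR 1.01e-16) in the authors' deposited table. NSDHL, the dehydrogenase, fell from 33.2 to 16.4 CPM, a log2 fold change of -1.02 (SE 0.105, FDR 1.13e-20) in the authors' deposited table. The drug levels were thus 2.04-fold and 2.03-fold below DMSO for DHCR7 and NSDHL. EBP fell by 0.78 (FDR 2.18e-07), HSD17B7 by 0.77 (FDR 9.95e-10) and SC5DL by 0.76 (FDR 8.06e-13) in log2 units, in the authors' deposited table. TM7SF2 fell from 123 to 92.1 CPM (log2 -0.42, FDR 0.00058) and CYP51A1 from 92.3 to 70.7 CPM (log2 -0.38, FDR 0.000738), in the authors' deposited table. The approximate 95% intervals of these first enzymes after lanosterol, -0.64 to -0.21 for TM7SF2 and -0.58 to -0.18 for CYP51A1, do not reach those of NSDHL and DHCR7 but overlap those of the other three.

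When both drugs were given to Hep3B, the 7 enzymes no longer moved together. Both directions appeared: 2 of 7 rose (CYP51A1 and HSD17B7), 4 fell (TM7SF2, NSDHL, EBP and SC5DL), and DHCR7 was not called. Of all symbols 49.6% were called in this table, 26% higher and 23.6% lower, so the number called among the 7 is read against a background of about the same share in each direction. The median of the 7 was -0.29 and that of all symbols -0.06. TM7SF2 went from 123 to 48.2 CPM, which is 2.55-fold lower, with a log2 fold change of -1.35 (SE 0.088, FDR 5.18e-52) in the authors' deposited table. Its level with both drugs lay below DMSO and below either drug alone. NSDHL went to 23.1 CPM (log2 -0.51, FDR 1.74e-08), EBP to 57.5 CPM (-0.39, FDR 0.000404) and SC5DL to 59.0 CPM (-0.29, FDR 0.00145), in the authors' deposited table. HSD17B7 rose from 11.5 to 16.2 CPM (log2 0.49, SE 0.097, FDR 1.67e-06) and CYP51A1 from 92.1 to 125 CPM (0.45, SE 0.074, FDR 6.09e-09), in the authors' deposited table. DHCR7 stood at 191 CPM against 186 with DMSO (log2 0.04, FDR 0.876, interval -0.12 to 0.19) in the authors' deposited table. DHCR7, which had the largest rise with GW3965, thus had a level near that of DMSO under both drugs. Its fall with sorafenib was within the error of that of NSDHL, which stayed lower under both drugs.

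**Figure D2:**
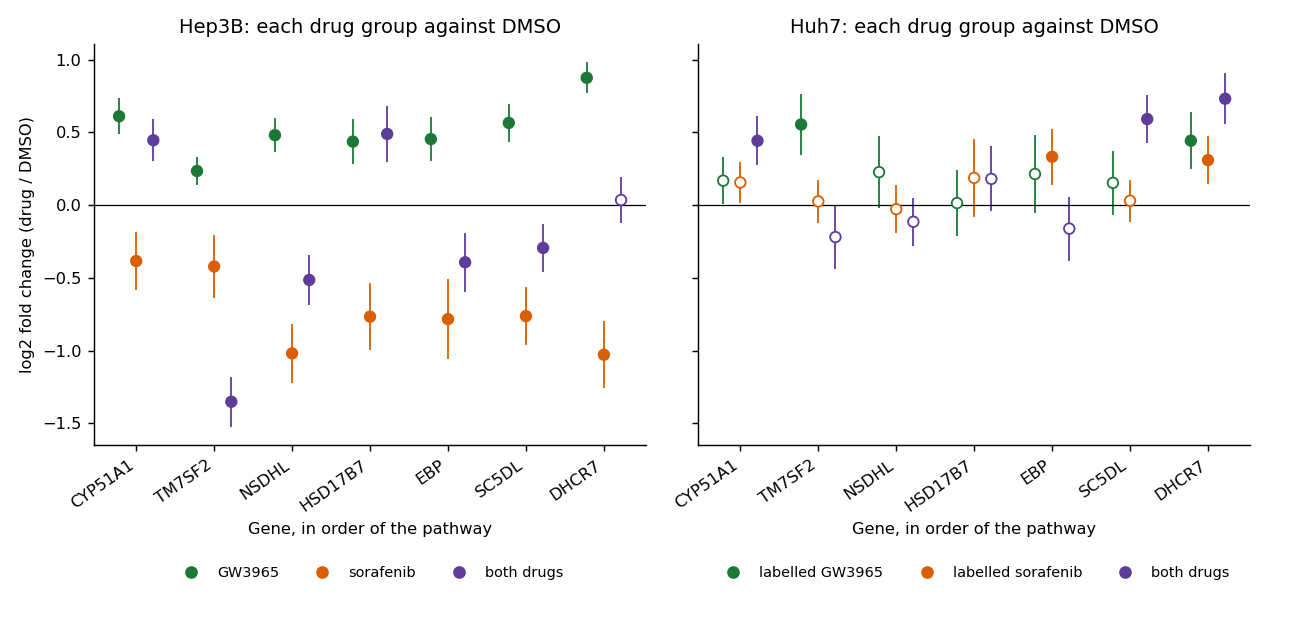
Log2 fold change of each enzyme transcript against DMSO of the same line, in pathway order, for Hep3B (left) and Huh7 (right); bars are approximate 95% intervals read back from the authors' p-values and filled points have an FDR under 0.05. In Hep3B every GW3965 point lies above 0 and every sorafenib point below it, and with both drugs the points run from -1.35 for TM7SF2 to 0.49 for HSD17B7.

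The level with both drugs was then set against each single drug in Hep3B. These differences of fold changes were tested with the approximate errors, and p-values were adjusted over all expressed genes by the Benjamini-Hochberg method. Against GW3965 alone, 5 of 7 were lower, where 63.8% of expressed genes differed in either direction, 30.7% higher and 33.2% lower. The differences were -1.59 for TM7SF2 (adjusted p 6.38e-52 by this approximate test), -0.995 for NSDHL, -0.86 for SC5DL, -0.85 for EBP and -0.84 for DHCR7. The remaining pair was not called: CYP51A1 differed by -0.16 (interval -0.37 to 0.04) and HSD17B7 by 0.05 (interval -0.20 to 0.30). Against sorafenib alone, 5 of 7 were higher and TM7SF2 was lower, where 31.1% of expressed genes differed, 16.6% of them higher and 14.5% lower as shares of all expressed genes. HSD17B7 was higher by 1.26 (adjusted p 6.19e-14 by the approximate test), DHCR7 by 1.06, CYP51A1 by 0.83, NSDHL by 0.50 and SC5DL by 0.47. TM7SF2 was lower with both drugs than with sorafenib alone by 0.93 on the log2 scale (difference -0.93, adjusted p 2.88e-09 by the approximate test). EBP, the isomerase, differed by 0.39 and was not called (adjusted p 0.0714 by the approximate test).

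Whether the combined change equalled the sum of the single-drug changes was tested next. For 5 of the 7 in Hep3B the departure from that sum was not called and ran from -0.10 (SC5DL) to 0.22 (CYP51A1), with 22.2% of expressed genes called, 10.8% higher and 11.4% lower. For NSDHL the sum of the single-drug changes was -0.54 and the measured change -0.51, a departure of 0.02 with an interval of -0.27 to 0.32. TM7SF2 had a sum of -0.19 and a measured change of -1.35, a departure of -1.16 (adjusted p 8.18e-12 by the approximate test). HSD17B7 had a sum of -0.33 and a measured change of 0.49, a departure of 0.82 (adjusted p 7.85e-05 by the approximate test). These 2 enzymes departed in opposite directions. The intervals of the other 5 reach as far as -0.44 and 0.50, so an uncalled departure does not show that the single-drug changes added up.

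**Figure D3:**
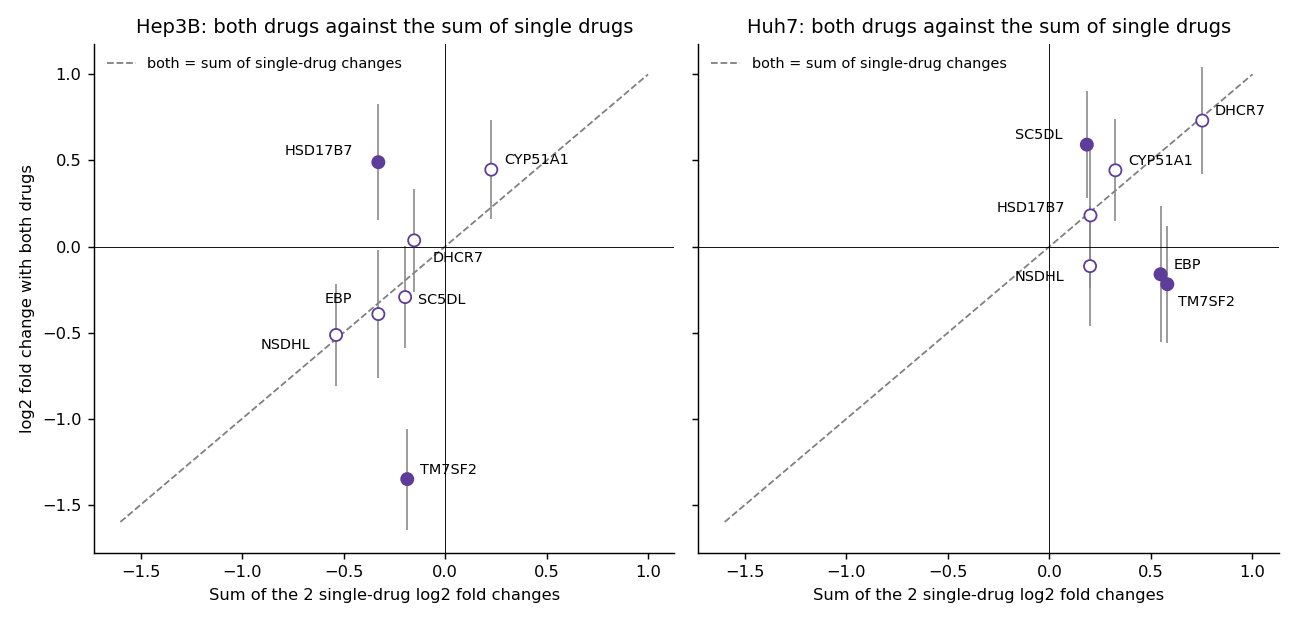
Log2 fold change with both drugs (vertical axis) against the sum of the 2 single-drug log2 fold changes (horizontal axis) for each enzyme, in Hep3B (left) and Huh7 (right); the dashed line marks equality, bars are the approximate 95% interval of the departure from it, and filled points have an adjusted p under 0.05. TM7SF2 lies below the line in both lines, by -1.16 in Hep3B and -0.80 in Huh7, and HSD17B7 lies above it in Hep3B by 0.82.

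In Huh7 each single-drug group had 2 of the 7 enzymes called, both higher. For the group labelled GW3965 this share is near the 20.4% of all symbols called in either direction at the authors' FDR. It is above the 9.13% called higher, with 11.3% called lower, and a count of 2 was not tested against these shares. TM7SF2 rose from 35.1 to 51.5 CPM (log2 0.55, SE 0.108, FDR 9.85e-06) and DHCR7 from 428 to 582 CPM (0.44, SE 0.101, FDR 0.000195), in the authors' deposited table. TM7SF2 had the highest fold change of the 7 in this group, within the error of DHCR7, and the lowest with GW3965 in Hep3B. The other 5 had fold changes between 0.01 (HSD17B7) and 0.23 (NSDHL) in the authors' deposited table, none called. In the group labelled sorafenib 2 of 7 were higher, where 2.05% of all symbols were called, 1.25% higher and 0.796% lower. EBP rose from 214 to 269 CPM (log2 0.33, SE 0.098, FDR 0.0351) and DHCR7 from 417 to 517 CPM (0.31, SE 0.083, FDR 0.0129), in the authors' deposited table. Neither passed an FDR of 0.01. The remaining 5 lay between -0.03 (NSDHL) and 0.19 (HSD17B7) in the authors' deposited table. The medians of the 7 were 0.21 and 0.16 in these 2 tables, and those of all symbols -0.07 and 0.01.

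With both drugs in Huh7, 3 of 7 enzymes rose and none was called lower, where 41.6% of all symbols were called, 24.3% higher and 17.3% lower. DHCR7, already the most abundant, rose from 410 to 681 CPM or 1.66-fold (log2 0.73, SE 0.089, FDR 3.52e-15) in the authors' deposited table. SC5DL, the desaturase before it, rose from 92.1 to 139 CPM (log2 0.59, SE 0.083, FDR 8.62e-12) in the authors' deposited table. CYP51A1 rose from 183 to 249 CPM (log2 0.44, SE 0.087, FDR 1.66e-06) in the authors' deposited table. The share called among the 7 was thus near that of all symbols in either direction, and nothing is read from which steps they are. The other 4 were not called, with TM7SF2 at -0.22 (FDR 0.102), EBP at -0.16 (FDR 0.271), NSDHL at -0.11 (FDR 0.311) and HSD17B7 at 0.18 (FDR 0.211) in the authors' deposited table. The median of the 7 was 0.18 and that of all symbols 0.16.

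Relative to the group labelled GW3965, both drugs in Huh7 lowered TM7SF2 by 0.77 (difference -0.77, adjusted p 1.41e-05 by the approximate test) and raised SC5DL by 0.44 (adjusted p 0.00883), where 30% of expressed genes differed, 20.4% higher and 9.61% lower. After subtraction of each table's median over expressed genes, SC5DL lost this call (adjusted p 0.0593 by the approximate test) and NSDHL and EBP were called lower, which turns a split of 1 higher and 1 lower into 0 and 3. Relative to the group labelled sorafenib, SC5DL was higher by 0.56, DHCR7 by 0.42 and CYP51A1 by 0.29, and EBP was lower (difference -0.49), with 47.1% of expressed genes differing, 29.1% higher and 18% lower. With the table medians subtracted CYP51A1 lost this call (adjusted p 0.155 by the approximate test) and TM7SF2 was called lower, a split of 2 and 2. The departure from the sum of the single-drug changes takes in both single-drug groups alike, so it does not depend on which label each carries. It was called for 3 of 7, where 21.2% of expressed genes were called, 15.3% higher and 5.9% lower. TM7SF2 departed by -0.80 (adjusted p 0.00014 by the approximate test), from a sum of 0.58 to a measured change of -0.22. EBP departed by -0.71 (adjusted p 0.00501 by the approximate test), from a sum of 0.55 to -0.16. SC5DL departed by 0.41 (adjusted p 0.0467 by the approximate test), a call that was lost with all representative transcripts in the adjustment (0.0766) or with table medians subtracted (0.236). TM7SF2 was the enzyme of the 7 whose departure was called in both lines, below the sum each time.

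The lines were compared directly where both drugs were present, since that label does not turn on the single-drug groups. With both drugs, 4 of 7 enzymes had lower fold changes in Hep3B than in Huh7, where 44% of expressed genes differed, 17.7% higher and 26.3% lower. The differences, Hep3B minus Huh7, were -1.13 for TM7SF2, -0.89 for SC5DL, -0.70 for DHCR7 and -0.40 for NSDHL, with adjusted p-values by the approximate test from 6.68e-14 to 0.00652. SC5DL moved in opposite directions, at -0.29 in Hep3B and 0.59 in Huh7 in the authors' deposited tables. CYP51A1 had nearly the same change in both lines, 0.45 and 0.44 in the authors' deposited tables, and the interval of its difference ran from -0.23 to 0.24. HSD17B7 (0.31, adjusted p 0.0853) and EBP (-0.23, adjusted p 0.216) were not called by the approximate test, and HSD17B7 was called once table medians were subtracted (0.36, adjusted p 0.0405).

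Between groups that carry the same single-drug label, the lines differed for most of the 7. Under the GW3965 label 5 of 7 differed (24.8% of expressed genes, 14.7% higher and 10.1% lower in Hep3B): CYP51A1, HSD17B7, SC5DL and DHCR7 changed more upward in Hep3B, by 0.41 to 0.44, and TM7SF2 less, by -0.32. At an adjusted p under 0.01 by the approximate test only CYP51A1 and DHCR7 remained, 2 of 7, since HSD17B7 (0.0162), SC5DL (0.0104) and TM7SF2 (0.0358) were above it. The TM7SF2 call was also lost with all representative transcripts in the adjustment (adjusted p 0.0579 by the approximate test). Under the sorafenib label all 7 had lower fold changes in Hep3B, by -0.45 (TM7SF2) to -1.34 (DHCR7), with 35.9% of expressed genes differing and 18.2% lower. Across labels, all 7 were lower with sorafenib in Hep3B than in the Huh7 group labelled GW3965 (19.4% of expressed genes differed, 9.64% higher and 9.72% lower), with DHCR7 at -1.47. Between GW3965 in Hep3B and the Huh7 group labelled sorafenib, 1.73% of expressed genes differed, 1.51% higher in Hep3B. There 4 of 7 were higher in Hep3B: DHCR7 by 0.57, SC5DL by 0.53, NSDHL by 0.51 and CYP51A1 by 0.46, and none was lower. How much of any of these differences belongs to a line and how much to what the Huh7 single-drug groups received cannot be told apart.

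The rest of the pathway was described from lists of named genes, with the 6 tables in the order of Hep3B with GW3965, sorafenib and both drugs and then Huh7 labelled GW3965, labelled sorafenib and with both drugs. In that order 4.51, 17.3, 26, 9.13, 1.25 and 24.3% of all symbols were called higher and 2.28, 17.4, 23.6, 11.3, 0.796 and 17.3% lower, with medians of -0.02, 0.09, -0.06, -0.07, 0.01 and 0.16, and each count below is to be read against these shares. The 11 genes from acetyl-CoA to lanosterol had 10 higher and 0 lower with GW3965 in Hep3B, and 1 higher and 10 lower with sorafenib, with medians of 0.67 and -0.99. MVD, which makes the isoprenoid unit, rose by 1.13 with GW3965, and HMGCS1 and MVK, early enzymes of the mevalonate route, fell by 1.21 and 1.18 with sorafenib, in the authors' deposited tables. With both drugs 2 of the 11 were higher and 6 lower in Hep3B (median -0.22), against 8 higher and 0 lower in Huh7 (median 0.43). LSS, the cyclase that makes lanosterol, fell by 1.32 in Hep3B with both drugs (FDR 3.43e-12), after a rise of 1.01 with GW3965 and a fall of 0.95 with sorafenib, in the authors' deposited tables. In Huh7 LSS rose by 0.89 with both drugs in the authors' deposited table. LSS thus stands next to TM7SF2 in the size of its fall in Hep3B. The Huh7 groups labelled GW3965 and labelled sorafenib had 3 and 5 of the 11 higher and 0 lower.

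A further 3 proteins that act after lanosterol were described: MSMO1, the methyl oxidase before NSDHL, C14orf1 (ERG28), which tethers the demethylating enzymes, and LBR. Over the 6 tables in that order, 2, 0, 1, 1, 0 and 1 of the 3 were higher and 0, 3, 2, 0, 0 and 1 lower, with medians of 0.41, -0.66, -0.22, 0.26, -0.06 and 0.13. With both drugs in Hep3B, C14orf1 was at -0.85 (FDR 1.64e-16) in the authors' deposited table. LBR, which shares its reaction with TM7SF2, was at -0.22 (FDR 0.00233) there, and MSMO1 at 0.24 (FDR 0.0343), in the authors' deposited table. The departure from the sum of single-drug changes of LBR in Hep3B was -0.05 (adjusted p 0.839 by the approximate test), against -1.16 for TM7SF2, so the large departure was seen in 1 of the pair of reductases; the difference between them was not tested. C14orf1 departed by -0.60 (adjusted p 0.00187 by the approximate test). In level per length, LBR stood at 65.3 CPM per kb with DMSO in Hep3B and 56.1 with both drugs, and TM7SF2 at 71.4 and 28.0. TM7SF2 was thus near LBR with DMSO and at about the level of SC5DL (26.1) with both drugs.

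**Figure D4:**
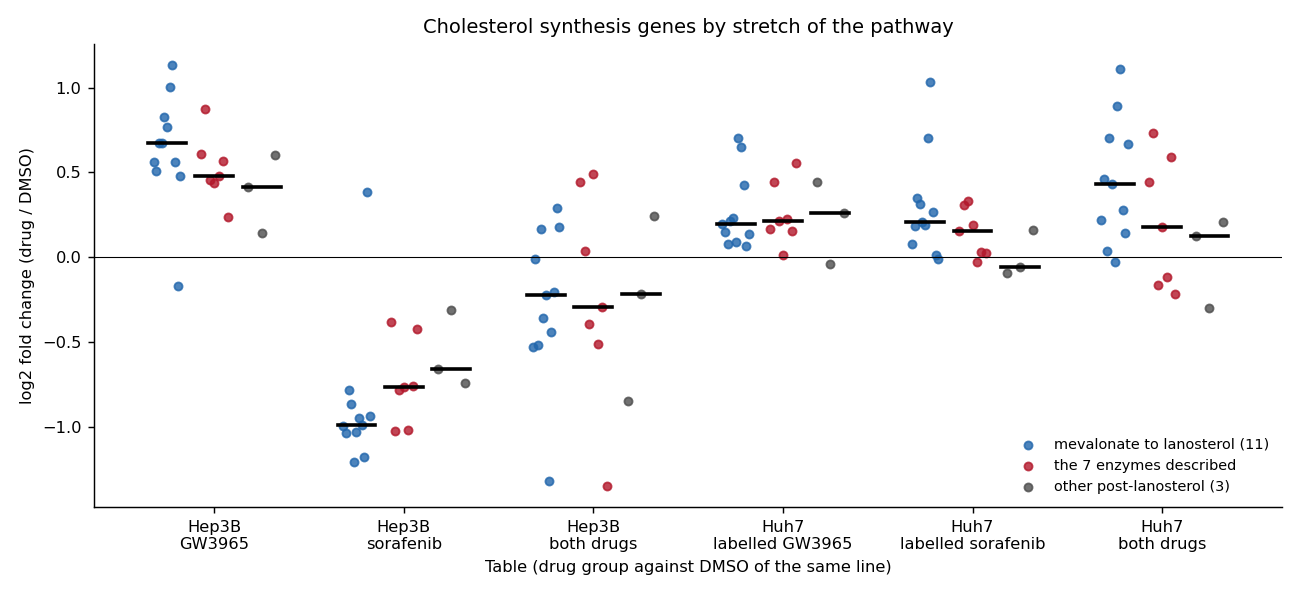
Log2 fold change against DMSO of the genes described in 3 stretches of the pathway, in each of the 6 tables; each point is 1 gene and each black bar the median of its stretch. In Hep3B the medians lie above 0 with GW3965 and below 0 with sorafenib in all 3 stretches, and with both drugs in Huh7 the stretch before lanosterol has the highest median, 0.43.

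Electrons for CYP51A1 come from the reductase POR, and those for SC5DL and MSMO1 from cytochrome b5 and its reductase. Of these 4 genes, 2, 0, 1, 1, 0 and 0 were higher and 0, 3, 3, 0, 0 and 3 lower over the 6 tables in the same order, with medians of 0.17, -0.25, -0.49, 0.07, 0.10 and -0.30. With both drugs, where 23.6% and 17.3% of all symbols were lower in Hep3B and Huh7, 3 of the 4 were lower in each line. In Hep3B with both drugs POR rose by 0.36 while CYB5B was at -0.99, CYB5R3 at -0.52 and CYB5A at -0.47, in the authors' deposited table. In Huh7 with both drugs CYB5A was at -0.70 in the authors' deposited table. Under both drugs in Hep3B, POR and CYP51A1 were thus higher and both cytochrome b5 genes and SC5DL lower, but MSMO1 was higher (0.24), and in Huh7 SC5DL was higher with CYB5A lower, in the authors' deposited tables. With sorafenib alone in Hep3B, POR (-0.21) and CYP51A1 (-0.38) were both lower in the authors' deposited table.

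Of 6 genes of SREBP control, 2, 1, 4, 1, 2 and 4 were higher and 0, 3, 1, 0, 0 and 1 lower, against 4.51, 17.3, 26, 9.13, 1.25 and 24.3% of all symbols higher. The medians of the 6 were 0.05, -0.19, 0.37, 0.08, 0.04 and 0.28. INSIG1, which retains SREBP in the endoplasmic reticulum and is itself a target, changed by 1.29, -1.47 and 0.36 in Hep3B and by 0.03, 0.90 and 0.91 in Huh7, in the authors' deposited tables. MBTPS1, a protease that cuts SREBP, was at -0.92 and SCAP, which escorts SREBP to it, at 0.61 in Hep3B with both drugs in the authors' deposited table. SREBF2, named after its values were seen, was called in all 6 tables, at 0.41, -0.29 and 0.58 in Hep3B and 0.42, 0.22 and 0.82 in Huh7, in the authors' deposited tables. Under both drugs in Hep3B SREBF2 was thus higher, and of the 7 enzymes 2 were higher and 4 lower, where 26% of all symbols were higher and 23.6% lower. Whether the SREBF2 transcript bears on the enzymes was not tested. Of 6 genes of sterol esterification and side-chain oxidation, 2 or 3 were expressed per table, 0, 1, 1, 2, 0 and 0 were higher and 0, 0, 2, 0, 0 and 0 lower. SOAT2 rose by 1.05 with sorafenib in Hep3B, SOAT1 was at -0.63 there with both drugs, and CYP27A1 rose by 1.03 in the Huh7 group labelled GW3965, in the authors' deposited tables.

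The HSD17B7 values need a limit of their own, since the tables also hold HSD17B7P2, a near-identical pseudogene copy to which reads may be split. HSD17B7P2 rose with both drugs by 1.90 in Hep3B (FDR 1.65e-10) and by 1.08 in Huh7 (FDR 2.94e-05), in the authors' deposited tables. Its level in Hep3B went from 0.779 to 2.91 CPM, and its share of the 2 genes' summed CPM from 6.32% to 15.2%. The summed level of the pair changed by 0.63 on the log2 scale in Hep3B with both drugs, against 0.49 for HSD17B7 alone, so the direction was the same with the copy counted in. The members have few other measured transcripts: 4 have more than 1 in the tables, and these differed by at most 0.034 in log2 fold change. Transcripts of the same gene can share reads, so this closeness is no independent check of the values. EBPL, a paralog of EBP, was called in 1 table, Huh7 with both drugs, at -0.22 (FDR 0.0456) in the authors' deposited table.

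Genes within 2 kb of a member were read from the RefSeq gene table, and the 4 that the tables hold are given, with fold changes in the order GW3965, sorafenib and both drugs. They were looked up after the values of the members were seen. CETN2, a centrin gene next to NSDHL, changed by 0.35, -0.70 and -0.93 in Hep3B, all called, and by 0.26, 0.19 and -0.29 in Huh7, where the single-drug groups go by their labels and none was called, in the authors' deposited tables. AKAP9, next to CYP51A1, changed by -0.04, 0.11 and 0.48 in Hep3B, the last called, and by 0.30, -0.04 and 0.41 in Huh7, the first and last called, in the authors' deposited tables. PORCN, next to EBP, was called in none of the 6 tables and lay between -0.07 and 0.25 in the authors' deposited tables. ZNHIT2, next to TM7SF2, was called in 1 table, Huh7 with both drugs (0.35), and was at -0.04 in Hep3B with both drugs, in the authors' deposited tables. In Hep3B, CETN2 was thus called on the side of its neighbour in 3 of 3 tables, AKAP9 in 1 of 3, and PORCN and ZNHIT2 in 0 of 3. In these 3 tables, which share their DMSO group, 4.51, 17.3 and 26% of all symbols were called higher and 2.28, 17.4 and 23.6% lower. CYP51A1 and DHCR7 overlap the noncoding genes CYP51A1-AS1 and DHCR7-DT, and since no source used here states strand use in the counting, reads of each pair cannot be told apart.

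The genes with the most similar profiles were found by the root mean square difference from the members' median log2 fold change over the 6 tables, among 10614 genes expressed in every table. The nearest were ACAT2 (0.143), CNN3 (0.143), ALDOC (0.152), TMEM97 (0.158) and FDPS (0.165), where the median over the other expressed genes was 0.495. ACAT2 and FDPS belong to the stretch before lanosterol, TMEM97 encodes a sterol-binding receptor, CNN3 a calponin and ALDOC an aldolase. The members' own distances were 0.163 for EBP, 0.181 for SC5DL, 0.197 for NSDHL, 0.331 for HSD17B7, 0.344 for DHCR7, 0.361 for CYP51A1 and 0.515 for TM7SF2. TM7SF2 was thus farther from the profile of its own pathway stretch than the median expressed gene. This measure describes 6 tables that share DMSO groups within a line and was given no test.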

How the data were processed

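RNA of 70 libraries in 8 groups was sequenced, and groups were taken from the labels. The authors compared each drug group with DMSO of the same line and deposited 6 tables of 32321 transcripts, per the file headers. Columns deposited by the authors hold the mean level as log2 CPM, the fold change on a log2 scale, the p-value with its FDR, and the number of libraries whose count was above 0. Per the submitters' processing notes edgeR was used (version not given) on builds hg19 and GRCh37. No source used here gives the aligner, the read counting, the normalization or which edgeR test was run. Counts of single libraries were not used here, so the planned count tests were not run and the authors' edgeR FDR was the test of each drug against DMSO.

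From these values, the fold change was checked to be drug over DMSO, and the FDR to be the Benjamini-Hochberg adjustment over all rows. Read as drug over DMSO, the implied log2 DMSO levels in 2 tables of a line differed with an SD over genes of at most 0.016. Read the other way, this SD was at least 0.351. For differences between fold changes, an approximate SE was taken as the size of the log2 fold change over the normal score of its p-value, with the median SE of 20 expression bins used where p exceeded 0.5, and as a lower limit elsewhere. Two-sided normal p-values were adjusted over representative transcripts with a mean of at least 2 CPM. DMSO libraries shared within a line enter each error, which makes the errors of contrasts within a line too large; contrasts between lines share no libraries. The script was tested on simulated data. Python 3.11.15, pandas 2.3.3, numpy 2.4.6, scipy 1.17.1 and matplotlib 3.10.9 were used. Transcript lengths came from GENCODE v29 through RefSeq accessions, and promoters were matched by symbol for 7 of 7 genes.

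The members and lists were chosen with earlier results of these data known. Named genes were all 7 members, known LXR and ERK targets, up to 4 genes per list with the largest called change, the 5 nearest profiles, and copies or paralogs of members. Some genes that this rule or the lists take are not reported here and were left out of the list counts. Alternatives were another FDR, another adjustment, another transcript, subtracted medians, no SE minimum and no expression filter.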

Additional observations from a re-analysis of the deposited data

Results flagged for a closer look

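Fold changes differed between Hep3B and Huh7 by the approximate test for the enzymes below, each given as the log2 fold change in Hep3B minus that in Huh7, with the share of expressed genes that differed in the same contrast. With both drugs (44% of expressed genes) the differences were -1.13 for TM7SF2, -0.89 for SC5DL, -0.70 for DHCR7 and -0.40 for NSDHL. Under the GW3965 label (24.8%) they were 0.44 for CYP51A1, 0.43 for DHCR7, 0.42 for HSD17B7, 0.41 for SC5DL and -0.32 for TM7SF2. Under the sorafenib label (35.9%) they were -1.34 for DHCR7, -1.12 for EBP, -0.99 for NSDHL, -0.95 for HSD17B7, -0.79 for SC5DL, -0.54 for CYP51A1 and -0.45 for TM7SF2. Between GW3965 in Hep3B and the Huh7 group labelled sorafenib (1.73%) they were 0.57 for DHCR7, 0.53 for SC5DL, 0.51 for NSDHL and 0.46 for CYP51A1. Between sorafenib in Hep3B and the Huh7 group labelled GW3965 (19.4%) they were -1.47 for DHCR7, -1.25 for NSDHL, -0.997 for EBP, -0.98 for TM7SF2, -0.92 for SC5DL, -0.78 for HSD17B7 and -0.55 for CYP51A1. The first 3 sets compare groups with the same label and the other two compare groups with different labels, so they are alternative readings of the Huh7 single-drug groups and are not added up. The last 4 sets rest on Huh7 groups that went against their labels on known drug targets, so line and treatment cannot be told apart in them. DHCR7 and SC5DL are in all 5 sets, and EBP is in the 2 that involve sorafenib in Hep3B.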

How the results depend on the processing

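Of 74 counts of called enzymes under an alternative, 72 stayed within 1.5 times the reported count. The other two came from a stricter threshold: at an FDR under 0.01 the Huh7 group labelled sorafenib had 0 enzymes called, and at an adjusted p under 0.01 the difference between lines under the GW3965 label had 2. Of 518 values of a single enzyme under an alternative, 502 kept call and direction, 12 lost the call, 4 gained it and 0 reversed. The calls that subtracting table medians ended or added stand beside the results they touch. In Hep3B no enzyme gained or lost a call against DMSO, or in its departure from additivity, under the alternatives run. Against DMSO, subtracting table medians left the authors' FDR as it was, so that alternative could neither end nor add a call there. Other transcripts of a member differed by at most 0.034 in log2 fold change, so using another transcript had little room to move a value. The counts above include both of these alternatives.

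No paired analysis was possible because the tables hold no values of single libraries. For the same reason edgeR with a replicate block, the other count-based tool with its size factors, and fits without single libraries were not run. Depth could not be examined, and a difference smaller than the approximate intervals was not detectable.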
